A study of Mus musculus with 2 samples.

Results

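The interferon response genes are a list of 37 mouse genes whose transcripts rise when cells receive an interferon signal. They were found by gene name among the gene probes of both arrays, and every probe that carried a listed name was taken. Of the 37 genes, 36 had a probe, with 47 probes among the 55681 gene probes of the array: 25 genes had 1 probe and 11 had 2. Ifi27 had no probe under that name.

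RNA came from pancreatic islets of control mice and of RbΔK7 knock-in mice, whose retinoblastoma protein resists phosphorylation. The labels give no strain, age, sex or diet, do not describe the control genotype further and do not say how many animals went into a sample. Islets were released with collagenase, picked under a microscope and frozen at once, so other pancreatic cells can be present. Each of 2 two-colour arrays carried 1 mutant sample in red (Cy5) and 1 control sample in green (Cy3), from separately harvested islets, and both arrays lay on 1 slide. The dyes were never exchanged, so genotype and dye cannot be told apart. The question of the design is which islet transcripts differ when Rb is held in a form that resists phosphorylation.

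Type I interferons bind the receptor of Ifnar1 and Ifnar2, and the kinases Jak1 and Tyk2 then activate STAT proteins, Stat2 among them. A complex that holds Stat2 and Irf9 binds the interferon-stimulated response element (ISRE), and the gamma-activated site (GAS) is bound after type II interferon. The induced genes encode RNA sensors, antiviral enzymes, ubiquitin-like modifiers and membrane proteins. In islets, interferon-induced transcripts are best known from virus infection and autoimmune diabetes.

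Oasl2, a member of the 2'-5'-oligoadenylate synthetase-like family, was the 1 interferon response gene that passed the test and rose in the mutant islets, 2.41-fold. This call held in 5 of 10 other settings of the processing, which overlap, so the count does not measure robustness. It held with other choices of probes and with median centring, where 6735 probes passed. It also held when the prior, the spread that limma takes from all probes, was made to follow intensity. It was lost in each setting that treated the background in another way, with separate channels and with a prior that follows the ratio. Most of the other members had higher values in the mutant, but none of them passed the test. Values are log2 ratios of mutant over control, normalized by loess within each array, and limma tested whether the mean of both ratios differed from 0. The test took the probes that stood well above background in at least 1 channel of each array, which kept 40 probes of 34 members. Mx1 and Oas3 had no tested probe. Where a gene had several tested probes, the brightest stood for it.

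Over the 34 tested members the median log2 ratio was 0.37 in replicate 1 and 0.46 in replicate 2, against 0.02 in each replicate over all 22266 tested probes. The median of the mean ratios was 0.36, or 1.29-fold, against 0.01 over all tested probes. Ratios were above 0 on both arrays for 25 of the 34 genes (30 of 40 probes), and 32.3% of all tested probes had this pattern. In 3 of the 34 genes (Ifit1, Ifit2 and Irf7) no control sample was well above background, so they were tested through the mutant channel alone. In 4 more (Gbp2, Oas2, Ifi44 and Dhx58) the replicate 1 control was not, so on that array they entered through the mutant channel alone. Such entry favours higher ratios. Ratios below 0 on both arrays were found for 0 of the 40 member probes and for 25.3% of all tested probes, and 9 genes had opposite signs on the arrays. Ratios of at least 0.5 on both arrays were found for 9 of the 34 genes (10 of 40 probes), against 2.39% of all tested probes. Gbp2, Oas2 and Ifi44 are among these 9.

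Past an adjusted p under 0.05, the background was 0.368% of tested probes higher in the mutant (82 probes) and 0.0135% lower (3 probes). Of the 40 member probes 1 was past it, that of Oasl2, on the higher side. At an unadjusted p under 0.05, limma placed 17 of 40 member probes (16 of 34 genes) on the higher side, where 8.16% of all tested probes lay. On the lower side it placed 0 of 40 member probes and 3.19% of all tested probes. These shares are descriptions of a list of related genes, and no test was made of the list as a whole.

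The channel levels tell whether the samples themselves separated. Levels are normalized log2 intensities, set to 1 distribution of average brightness between the arrays. Both mutant samples lay above both control samples for 20 of 34 members (25 of 40 probes), and for 21.9% of all tested probes. These 20 include Ifit1 and Ifit2, whose control samples were not well above background. They also include Gbp2 and Ifi44, whose replicate 1 control was not. In the other 14 tested members the samples overlapped, although 5 of these had ratios above 0 on both arrays. The plots of ratios by gene and of both arrays against each other show the same values.

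**Figure D1:**
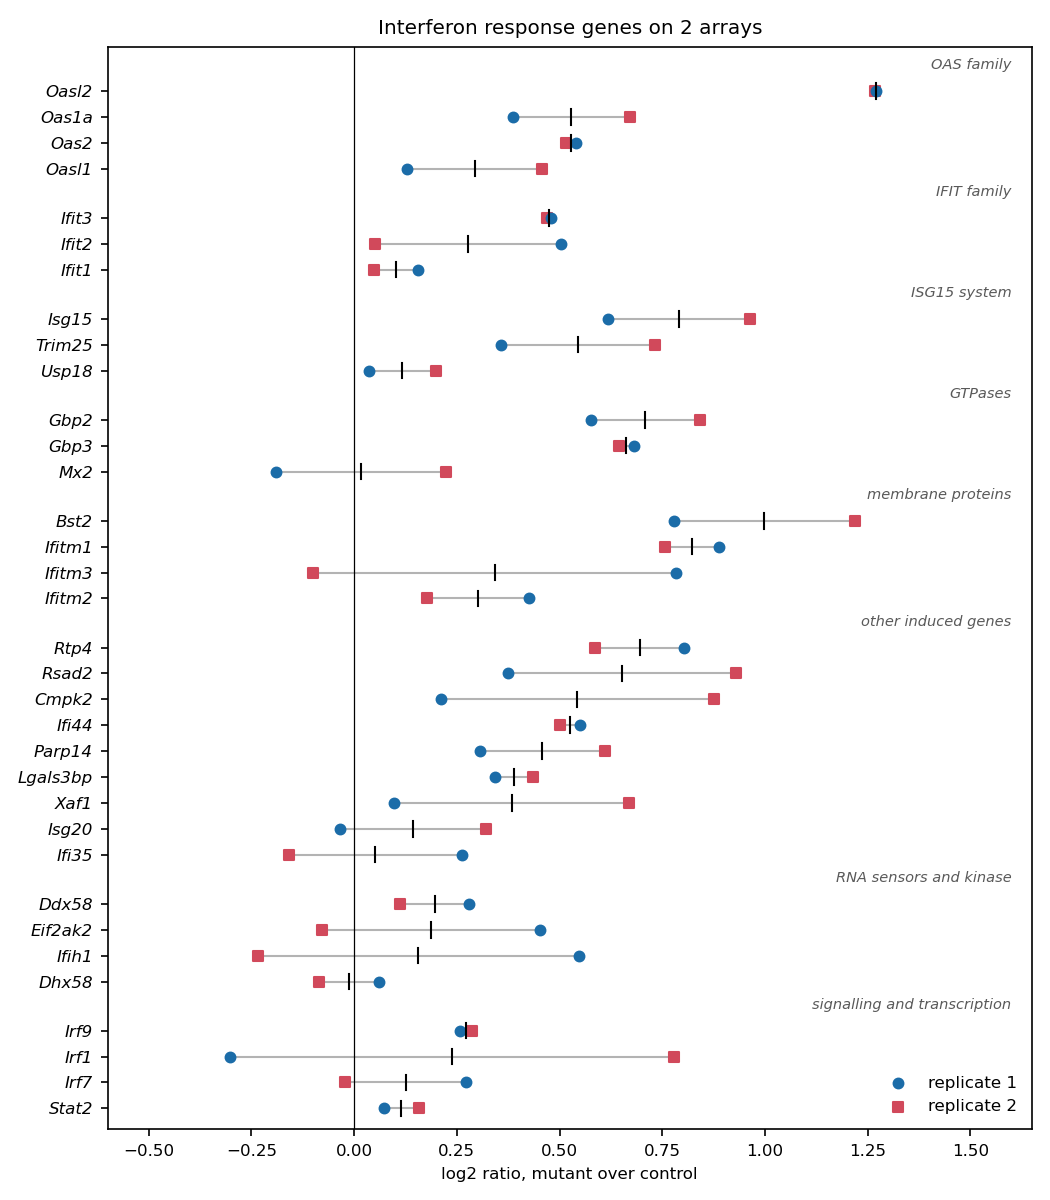
Log2 ratios of mutant over control (x axis) for the 34 tested interferon response genes, grouped by role; circles are the replicate 1 array, squares the replicate 2 array and black ticks their mean. Oasl2 lies farthest right at 1.27 on both arrays, and 9 genes have 1 array on each side of 0.

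**Figure D2:**
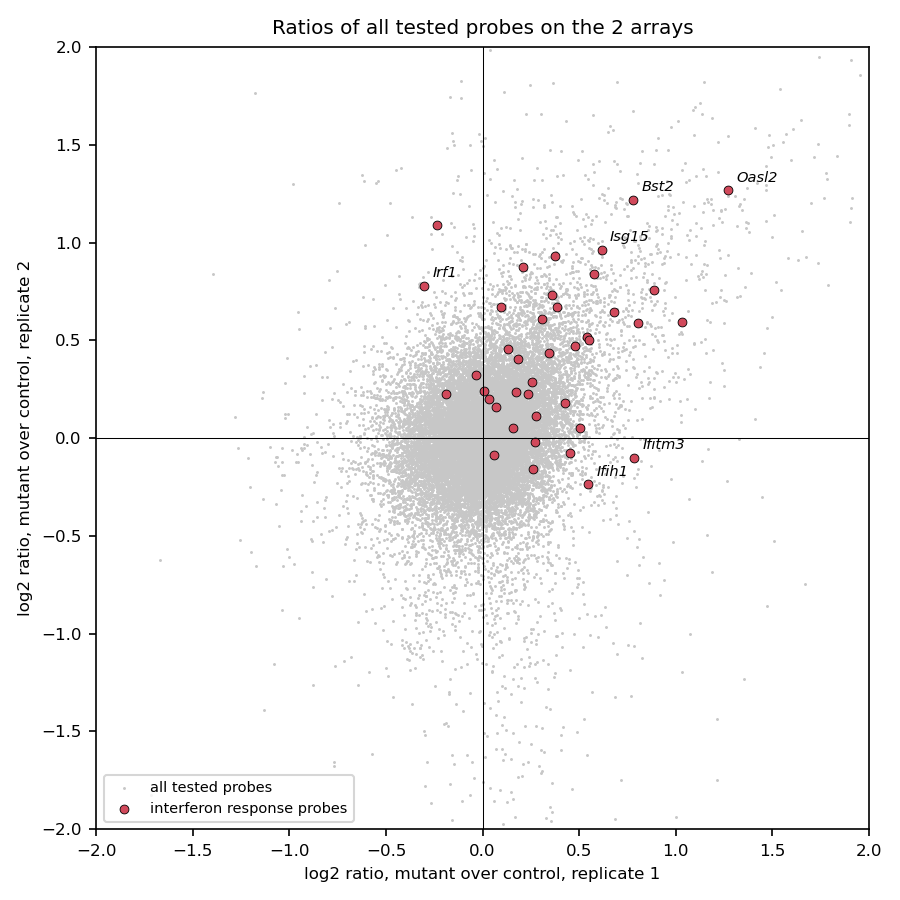
Log2 ratios of mutant over control on the replicate 1 array (x axis) and the replicate 2 array (y axis) for all 22266 tested probes in grey and the 40 interferon response probes in red; 157 probes beyond 2 on either axis are not drawn. No red point lies below 0 on both axes, and 30 of 40 lie above 0 on both.

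Interferon-type motifs were searched in the promoters of the members. As the list was made of interferon-induced genes, a high share of such motifs is not separate from that choice. RefSeq promoter windows on GRCm38.p6, each of 300 bases (250 before the gene start and 50 after it), were found for 29 of the 37 members. Oas2, Mx1, Mx2, Dhx58, Rtp4, Ifi27, Parp14 and Usp18 had no entry in that table. The ISRE letters GAAANNGAAA, searched on both strands, were present for 15 of the 29 members (51.7%), against 3.99% of 27025 genes and 3.44% of 32851 windows. The GAS letters TTCNNNGAA, which read alike on both strands, were present for 8 of 29 (27.6%), against 9.55% of genes and 8.30% of windows. Bst2, Eif2ak2, Ifitm3 and Oas1a held both motifs, whose matches shared bases in Bst2 and Ifitm3.

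In 11 members an ISRE match lay wholly before the gene start. Shown first are 7 of these, from the largest to the smallest mean ratio, then Ifit1 and Stat2, which carry the same letters but had ratios near 0 as processed here. Ifit1 was well above background in neither control sample. Its mean ratio was 0.10 as reported and 1.08 from the processed signals of the scanner software. Oasl2, the gene that rose, is shown last with the 100 bases before its start. Each is written 5' to 3' along the gene, with every base of an ISRE match in capitals and overlapping matches joined into 1 run.
Bst2: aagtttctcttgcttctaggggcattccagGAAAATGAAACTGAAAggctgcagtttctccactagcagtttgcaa
Isg15: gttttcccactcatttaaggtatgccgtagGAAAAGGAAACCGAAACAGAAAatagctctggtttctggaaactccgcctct
Gbp2: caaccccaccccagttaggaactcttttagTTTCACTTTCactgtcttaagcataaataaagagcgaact
Gbp3: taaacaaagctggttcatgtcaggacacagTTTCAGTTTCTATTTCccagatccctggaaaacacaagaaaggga
Rsad2: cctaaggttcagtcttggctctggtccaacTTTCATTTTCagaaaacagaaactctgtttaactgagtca
Oas1a: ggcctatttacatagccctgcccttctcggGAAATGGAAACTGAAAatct
Ifit3: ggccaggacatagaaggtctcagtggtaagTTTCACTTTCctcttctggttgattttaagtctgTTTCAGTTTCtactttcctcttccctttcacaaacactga
Ifit1: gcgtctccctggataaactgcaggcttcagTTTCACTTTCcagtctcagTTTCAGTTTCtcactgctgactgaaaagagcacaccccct
Stat2: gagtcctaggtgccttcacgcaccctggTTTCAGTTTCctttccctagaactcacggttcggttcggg
Oasl2: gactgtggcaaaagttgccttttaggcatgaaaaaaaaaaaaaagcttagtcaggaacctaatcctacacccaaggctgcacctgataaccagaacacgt
On GRCm38.p6 the plus-strand windows are those of Gbp2 (chr3:142620574-142620643), Gbp3 (chr3:142559969-142560043), Ifit3 (chr19:34583343-34583446), Ifit1 (chr19:34640755-34640843), Stat2 (chr10:128270248-128270315) and Oasl2 (chr5:114896834-114896933). The minus-strand windows are those of Bst2 (chr8:71537557-71537632), Isg15 (chr4:156200845-156200926), Rsad2 (chr12:26456533-26456602) and Oas1a (chr5:120907526-120907575). Isg15 held 3 matches in overlap. No ISRE match was found in the 300 bases of Oasl2, which says only that these letters are not in this window.

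The ratios of members with and without the motif covered overlapping ranges. In the 14 tested members with an ISRE match, medians were 0.47 in replicate 1 and 0.32 in replicate 2, and 11 were higher on both arrays. In the 14 without one, medians were 0.27 and 0.48, and 10 were higher on both. Of all tested probes, 32.3% were higher on both. Mean ratios ran from 0.10 (Ifit1) to 1.00 (Bst2) with a match and from 0.05 (Ifi35) to 1.27 (Oasl2) without. A match is a description of letters, and binding of any factor was not measured.

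**Figure D3:**
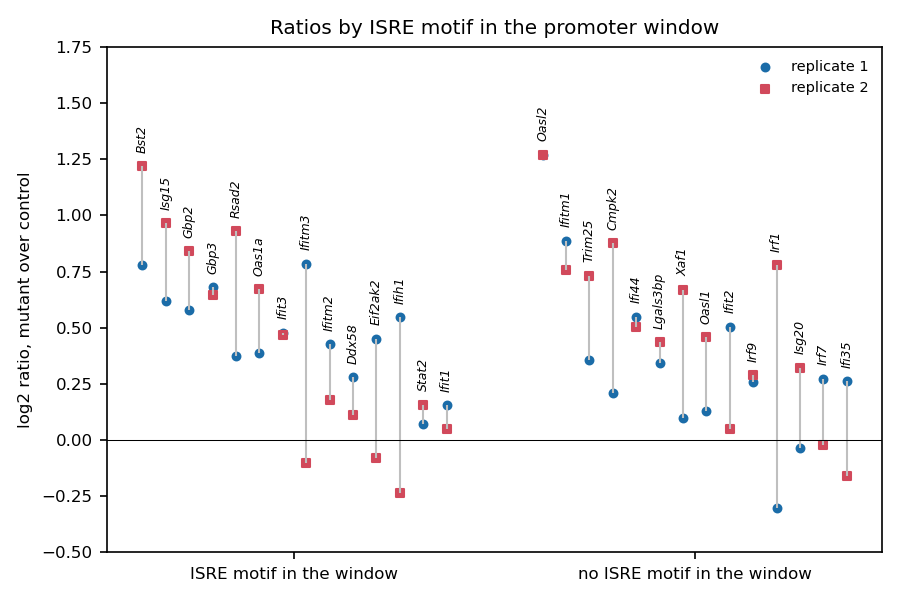
Log2 ratios of mutant over control (y axis) for the 28 tested members with a promoter window, split by an ISRE match in it; circles are the replicate 1 array, squares the replicate 2 array and grey lines join them. The 2 sets overlap, and Oasl2, the highest, is in the set without a match.

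Transcription factors of the interferon signal had small or divided ratios. Stat2 and Irf9, parts of the ISRE-binding complex, had ratios of 0.07 and 0.16, and of 0.26 and 0.29. Both were thus above 0 on each array, and their control and mutant samples overlapped. Irf7, the factor that amplifies type I interferon production, had 0.27 and -0.02 and was not well above background in either control sample. On replicate 2 its mutant level lay below the control.

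Irf1, a factor induced by both interferon types, differed more between the arrays than any other tested member. It had log2 levels of 10.22 (control) and 9.91 (mutant) in replicate 1, and 9.63 and 10.41 in replicate 2. The mutant was thus the lower sample in pair 1 and the higher in pair 2, with ratios of -0.30 and 0.78 (mean 0.24 ± 0.77, SD, n = 2; adjusted p = 0.803 by limma). A second Irf1 probe, well above background in no sample, had ratios of -0.39 and -0.06.

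RNA sensors and the RNA-activated kinase gave no shared direction over the pairs. Of 4 tested genes, 1 was higher on both arrays, a pattern that 32.3% of all tested probes had. This was Ddx58, which encodes the sensor RIG-I, with ratios of 0.28 and 0.11. Ifih1, which encodes the long double-stranded RNA sensor MDA5, had log2 levels of 7.58 (control) and 8.13 (mutant) in replicate 1, and 7.99 and 7.76 in replicate 2. Only the replicate 1 pair had the mutant higher, and its ratios were 0.55 and -0.23 (mean 0.16 ± 0.55, SD, n = 2; adjusted p = 0.847 by limma). A dimmer Ifih1 probe, well above background in no sample, had ratios of 0.18 and 0.30.

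Eif2ak2, which encodes the kinase PKR that halts translation, had ratios of 0.45 and -0.08. Dhx58, which encodes LGP2, a regulator of both sensors, had the lowest mean of the tested members. Its log2 levels were 6.58 (control) and 6.64 (mutant) in replicate 1, and 6.63 and 6.55 in replicate 2. These 4 values lay within a narrow band and overlapped, and the control of replicate 1 was not well above background. The mean ratio was -0.01 ± 0.10 (SD, n = 2; adjusted p = 0.986 by limma).

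The OAS family senses double-stranded RNA and, in its active members, makes the 2'-5'-linked oligoadenylate that switches on RNase L. All 4 tested members were higher on both arrays, against 32.3% of all tested probes, and Oasl2 passed. Oasl2 had log2 levels of 6.84 (control) and 8.11 (mutant) in replicate 1, and 7.33 and 8.60 in replicate 2. Both mutant samples were above both controls, and each sample was well above background. The ratios were 1.27 on both arrays (mean 1.27 ± 0.0023, SD, n = 2; adjusted p = 0.0419 by limma). That SD was far below the prior SD of 0.204 that limma takes from all probes, so the test rests mainly on the prior. The call was lost with an offset of 0 (adjusted p = 0.148 by limma), processed signals (0.246), the deposited ratios (0.247), separate channels (0.337) and a prior that follows the ratio (0.0757). Its single probe lies at chr5:115362168-115362227 on mm9.

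Oas2 had log2 levels of 6.48 (control) and 7.02 (mutant) in replicate 1, and 7.03 and 7.54 in replicate 2. The mutant was higher within each pair, but the mutant sample of replicate 1 lay just below the control of replicate 2, and the control of replicate 1 was not well above background. Its ratios were 0.54 and 0.52 (mean 0.53 ± 0.017, SD, n = 2; adjusted p = 0.229 by limma). Oas1a, an enzymatically active synthetase, had ratios of 0.39 and 0.67 on its brighter probe and 0.18 and 0.41 on the other. Oasl1 had 0.13 and 0.46, and Oas3 was well above background in no sample.

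The IFIT proteins bind foreign RNA and block its translation. Ifit3 had nearly equal ratios of 0.48 and 0.47, with control levels of 6.65 and 6.69 and mutant levels of 7.13 and 7.16, so the groups did not overlap (adjusted p = 0.276 by limma). Ifit2 had ratios of 0.50 and 0.05, and Ifit1 0.16 and 0.05. Neither Ifit1 nor Ifit2 was well above background in a control sample. Both entered the test through their mutant samples alone, a filter that favours higher ratios. With control levels raised to the lowest level well above background, the mutant stood 1.03-fold higher for Ifit1 and 1.01-fold higher for Ifit2. These values are lower bounds and do not estimate the rise. All 3 genes of this family were higher on both arrays, against 32.3% of all tested probes. None passed, and only Ifit3 was measured in the controls.

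Isg15 is a ubiquitin-like protein that is attached to other proteins during the interferon response. Its log2 levels were 7.28 (control) and 7.90 (mutant) in replicate 1, and 7.87 and 8.83 in replicate 2. The lower mutant sample exceeded the higher control by a small margin, and the groups did not overlap. The ratios were 0.62 and 0.96 (mean 0.79 ± 0.25, SD, n = 2; adjusted p = 0.133 by limma). A dimmer second probe, well above background only in the mutant sample of replicate 2, had ratios of 0.21 and 0.37.

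Trim25, a ligase that uses ISG15 and activates RIG-I, had ratios of 0.36 and 0.73 on its brighter probe. The other probe gave 0.01 and 0.24, the widest gap in mean ratio between 2 tested probes of a member (0.42). Usp18, the protease that removes ISG15 and damps the receptor, had 0.04 and 0.20. All 3 genes of the ISG15 system were higher on both arrays, against 32.3% of all tested probes, and none passed.

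Guanylate-binding proteins are GTPases that attack the membranes of intracellular pathogens and respond strongly to type II interferon. Gbp2 had log2 levels of 6.67 (control) and 7.25 (mutant) in replicate 1, and 6.85 and 7.69 in replicate 2. Gbp3 had 7.09 and 7.77 in replicate 1, and 7.01 and 7.66 in replicate 2. For both genes the 2 mutant samples were above the 2 controls, and the control of replicate 1 was not well above background for Gbp2. Gbp2 had ratios of 0.58 and 0.84 (mean 0.71 ± 0.19, SD, n = 2; adjusted p = 0.150 by limma), and Gbp3 0.68 and 0.64 (mean 0.66 ± 0.025, SD, n = 2; adjusted p = 0.146 by limma).

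The Mx proteins are dynamin-like GTPases that trap viral components. Mx2 had log2 levels of 6.69 (control) and 6.50 (mutant) in replicate 1, and 6.65 and 6.87 in replicate 2. The mutant was lower in pair 1 and higher in pair 2, and the mean ratio was 0.02 ± 0.29 (SD, n = 2; adjusted p = 0.982 by limma). Mx1 was well above background only in the mutant sample of replicate 2, and its untested ratios were 0.13 and 0.69.

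Among membrane proteins, Bst2 and Ifitm1 had the highest means after Oasl2. Bst2, also called tetherin, holds budding virus at the cell surface. The log2 levels were 7.79 (control) and 8.57 (mutant) in replicate 1, and 8.04 and 9.26 in replicate 2. Both mutant samples lay above both controls, with ratios of 0.78 and 1.22 (mean 1.00 ± 0.31, SD, n = 2; adjusted p = 0.0885 by limma). Its probe lies at chr8:74058603-74058662 on mm9.

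Ifitm1 belongs to the small membrane proteins that hinder virus entry, and its log2 levels were 7.04 (control) and 7.93 (mutant) in replicate 1, and 7.25 and 8.01 in replicate 2. The groups did not overlap, with ratios of 0.89 and 0.76 (mean 0.82 ± 0.094, SD, n = 2; adjusted p = 0.0913 by limma). A second probe that carries its name had ratios of 1.03 and 0.59, but the files place it on chromosome 8 and the first on chromosome 7 (mm9). Ifitm genes are close relatives, and cross-hybridisation between their probes was not tested.

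Ifitm3, from the same family, divided the pairs. Its probe was spotted 10 times, and its log2 levels were 7.88 (control) and 8.66 (mutant) in replicate 1, and 9.35 and 9.25 in replicate 2. Both samples of replicate 2 were above both samples of replicate 1, and the groups overlapped. The ratios were 0.78 and -0.10 (mean 0.34 ± 0.63, SD, n = 2; adjusted p = 0.642 by limma). Ifitm2 had ratios of 0.43 and 0.18, and its control of replicate 2 lay above the mutant of replicate 1.

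**Figure D4:**
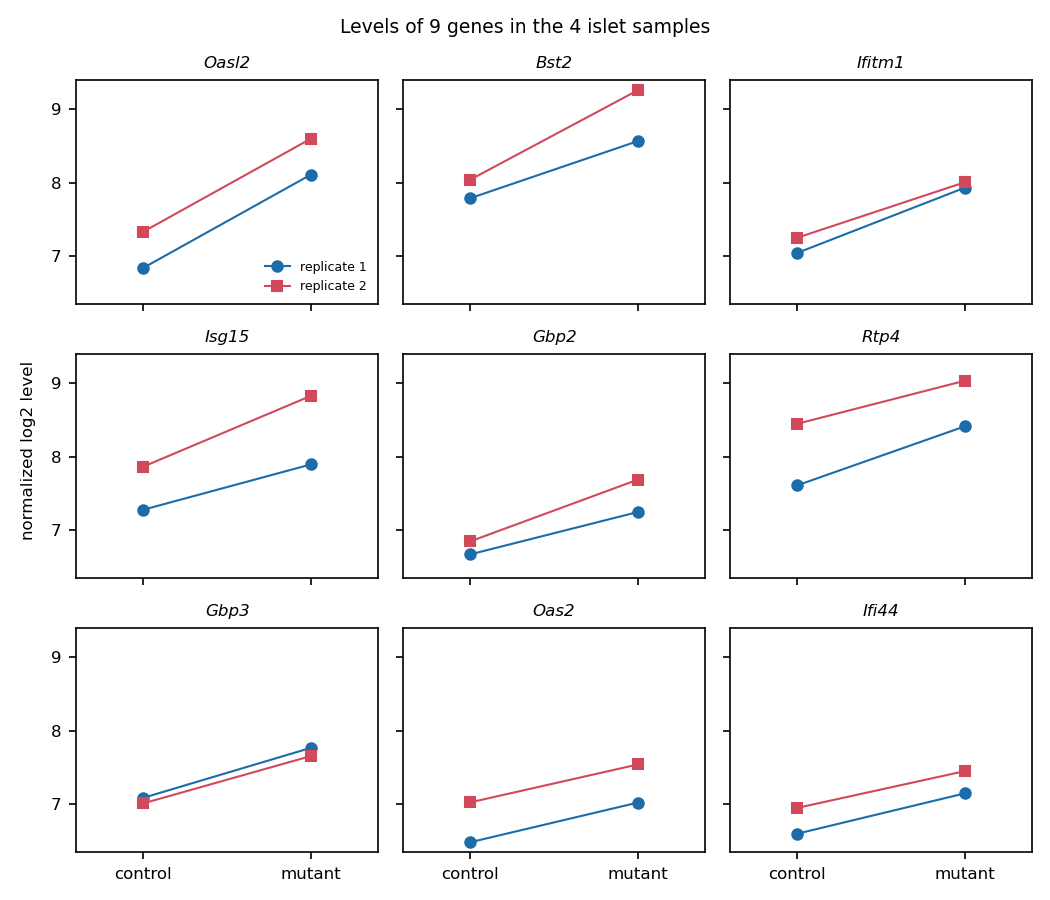
Normalized log2 levels (y axis) in the control and mutant sample of each replicate for the 9 members with ratios of at least 0.5 on both arrays; each line joins the 2 samples of 1 array. Every line rises, while for Rtp4 and Oas2 the replicate 1 mutant sample lies just below the replicate 2 control.

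Other interferon-induced genes were mostly higher on both arrays, 7 of 9 tested against 32.3% of all tested probes, and none passed. Rtp4, a chaperone that brings receptors to the cell surface, had log2 levels of 7.61 (control) and 8.41 (mutant) in replicate 1, and 8.45 and 9.04 in replicate 2. The mutant was higher within each pair, and the mutant of replicate 1 lay just below the control of replicate 2. The ratios were 0.80 and 0.59 (mean 0.70 ± 0.15, SD, n = 2; adjusted p = 0.149 by limma). Ifi44, a gene of unsettled function, had levels of 6.60 (control) and 7.15 (mutant) in replicate 1, and 6.95 and 7.45 in replicate 2. Its groups did not overlap, with ratios of 0.55 and 0.50 (mean 0.53 ± 0.034, SD, n = 2; adjusted p = 0.234 by limma), and the control of replicate 1 was not well above background.

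Rsad2 and Cmpk2 are neighbouring genes: Rsad2 encodes viperin, which makes a chain-terminating nucleotide, and Cmpk2 encodes a mitochondrial nucleotide kinase. Cmpk2 had log2 levels of 8.08 (control) and 8.29 (mutant) in replicate 1, and 7.40 and 8.27 in replicate 2. The control of replicate 2 was the low sample, and the other 3 lay close together. The ratios were 0.21 and 0.88 (mean 0.54 ± 0.47, SD, n = 2; adjusted p = 0.372 by limma), and its second probe had -0.23 and 1.09. Rsad2 likewise had its lowest level in the control of replicate 2, with ratios of 0.37 and 0.93 (adjusted p = 0.259 by limma).

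Parp14, which attaches ADP-ribose to proteins, had ratios of 0.31 and 0.61. Lgals3bp, a secreted galectin-binding glycoprotein, had 0.34 and 0.44, and Xaf1, an antagonist of the apoptosis inhibitor XIAP, 0.10 and 0.67. All 3 were higher on both arrays without overlap between the groups. A second Xaf1 probe, not tested, had ratios of 0.14 and -2.09 and was well above background only in the control of replicate 2.

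Isg20, an RNA exonuclease, had ratios of -0.03 and 0.32, so its pairs differed in sign, while its other probe had 0.17 and 0.23. Ifi35, a partner of the protein Nmi, was among the 3 lowest means. Log2 levels of 8.39 (control) and 8.65 (mutant) were measured in replicate 1, and 8.65 and 8.49 in replicate 2. The pairs ran in opposite directions, with a mean of 0.05 ± 0.30 (SD, n = 2; adjusted p = 0.944 by limma).

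The rest of the interferon pathway was read from a separate list of 138 genes, of which 124 had a probe and 86 were tested. Of these 86, 49 were higher and 8 lower on both arrays, against 32.3% and 25.3% of all tested probes, and 29 had opposite signs. With limma 0 passed, and 27 were at an unadjusted p under 0.05, counting both signs. Among all tested probes limma placed 8.16% on the higher and 3.19% on the lower side at that level. The median ratios of the 86 were 0.08 and 0.23, lower than those of the members. The 48 of them listed as other induced genes had medians of 0.08 and 0.34, and 31 were higher on both arrays. Ligands came first in this list: 13 interferon genes with 17 probes, of which 15 were well above background in 0 samples. The other 2, of Ifna1 and Il28b, were above it in 1 sample each, and no ligand probe was tested.

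Receptor genes of both interferon types were higher on both arrays by their brightest probe, and none passed. Ifngr1, the ligand-binding chain for type II interferon, had ratios of 0.64 and 0.83 (adjusted p = 0.127 by limma), and Ifngr2 0.38 and 0.09. Ifnar1 and Ifnar2, the type I receptor chains, had 0.36 and 0.52, and 0.36 and 0.20. A dimmer tested probe of Ifnar1 differed in sign between the arrays, at 0.35 and -0.01. The kinase genes lay nearer 0, with Jak1 at -0.14 and 0.03, Jak2 at -0.09 and 0.01, and Tyk2 at 0.15 and 0.12.

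Of the other transcription factors, Irf8, a factor of myeloid cells, had ratios of 0.45 and 0.56, Irf3 -0.13 and -0.14, Irf2 -0.23 and -0.03, and Stat3 0.04 and 0.00. None of them passed with limma. Socs3, which encodes a feedback inhibitor of JAK signalling, had the lowest mean of the list, with ratios of -1.17 and -0.65 (adjusted p = 0.126 by limma). Log2 levels were 10.89 (control) and 9.72 (mutant) in replicate 1, and 8.13 and 7.47 in replicate 2. The mutant was lower within each pair, and both samples of replicate 1 were above both of replicate 2.

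After Socs3 the lowest means were those of Slfn5 (-0.34 and -0.97), the DNA sensor gene Tlr9 (-0.28 and -0.17) and Oas1b (-0.33 and 0.02). The highest were those of the immunity-related GTPase gene Tgtp2 (0.49 and 1.42), of Ifi27l2a (1.03 and 0.59), of the GTPase gene Irgm2 (0.47 and 1.01) and of Ifngr1. For Tgtp2, Irgm2 and Ifngr1 the mutant samples lay above both controls, and for Ifi27l2a the samples overlapped. None of these 8 genes passed (limma adjusted p from 0.126 to 0.767).

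Markers of other cell types moved in the same samples. In whole islets, more cells of a type and more RNA per cell cannot be told apart. Of all tested probes, 32.3% were higher and 25.3% lower on both arrays. Past the test lay 0.368% on the higher side. Stellate cell and fibroblast markers had higher values in the mutant of each pair for 11 of 11 tested (medians 2.10 and 1.18, with 6 past the test), with summed log2 levels of 11.69 and 13.50 in the controls and 13.80 and 15.13 in the mutants. Leukocyte markers were higher on both arrays for 11 of 18 tested and lower on both for 4 (medians 0.11 and 0.41). With limma 0 passed, and at an unadjusted p under 0.05 there were 6 on the higher and 1 on the lower side. For all tested probes these shares were 8.16% and 3.19%. Their summed log2 levels were 13.64 and 13.41 in the controls and 13.53 and 13.56 in the mutants, and the single probe of Itgam made up 55.1% to 58.3% of each sum. Without Itgam the sums were 12.41 and 12.19 in the controls and 12.38 and 12.30 in the mutants. The brightest probes then were those of Csf1r, Cd3e and Cd4, all lower on both arrays. The sums thus follow a few bright probes and do not measure leukocyte content.

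Among the defining leukocyte markers, Ptprc, Cd3g, Cd8a and Ms4a1 were well above background in no sample. The monocyte gene Cd14 had ratios of 0.62 and 1.01 and Lyz1 had 0.98 and 1.18, the highest of this list. The lowest were those of Cd3e, at -0.39 and -0.53, and Csf1r, at -0.15 and -0.21. Bst2 is itself a marker of plasmacytoid dendritic cells, and the 5 tested markers of that list, with Bst2 among them, had medians of 0.29 and 0.16. Of these 5, 2 were higher and 1 lower on both arrays, and 2 had opposite signs. Tcf4 had ratios of 0.29 and 0.65, Siglech -0.49 and 0.16, Ly6d -0.57 and -0.31, and Klk1 0.29 and -5.00. Those of Klk1 lay near the acinar medians of 0.48 and -5.11, and which cells its signal came from was not tested. The medians are thus single values of Klk1 and Siglech and do not describe a shared shift. Endothelial markers were higher on both arrays for 10 of 12 (medians 0.39 and 0.58, 1 past the test). Duct markers were so for 8 of 9 (0.21 and 0.39, 2 past the test), against 32.3% of all tested probes. Islet endocrine markers had medians of -0.14 and 0.83, and acinar markers 0.48 and -5.11. The members' own summed log2 levels were 14.27 and 14.28 in the controls and 14.56 and 14.79 in the mutants. The part of these cell types in the values of the interferon response genes was not tested.

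The ratios of the members also depended on how each array was centred and how its background was removed. When each array was centred on its median and loess was left out, the member medians were 0.73 and 1.30 and 33 of 34 members were higher on both arrays, as were 87.3% of all tested probes. In that setting the medians of all tested probes were themselves 0.39 and 0.84. The pathway and marker lists were read with loess only. Relative to all tested probes, the member median stood higher by 0.35 as reported and by 0.31 to 0.59 over the other settings, the lowest with the mean over all probes of a gene (member median 0.32). Oasl2 had means from 1.27 to 2.17 over the 10 other settings (limma adjusted p from 2.01e-06 to 0.337).

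**Figure D5:**
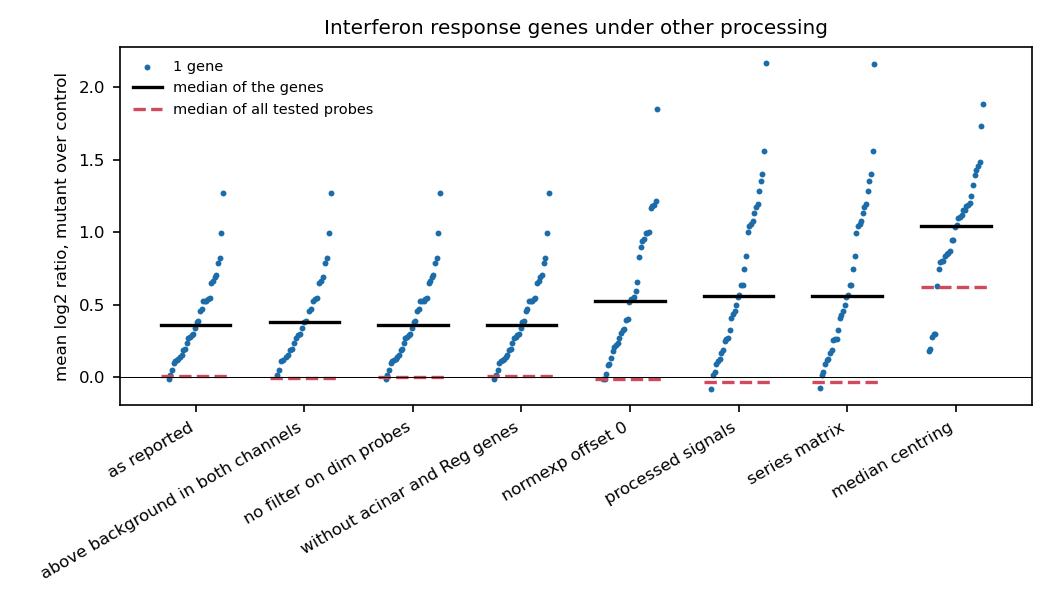
Mean log2 ratios of mutant over control (y axis) of the tested members under 8 ways of processing (x axis); each point is 1 gene, black lines are the members' medians and dashed red lines the medians of all tested probes. The members' median lies above that of all probes in each setting, from 0.36 against 0.01 as reported to 1.04 against 0.62 with median centring.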

How the data were processed

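Total RNA of 4 islet samples was hybridised to 2 two-colour arrays. Per the submitters' processing notes, Agilent Feature Extraction (version 10.7.3.1) read them. Intensity columns of the deposited files hold mean signals, median local backgrounds and processed signals, and log10 columns hold red over green ratios, per the file headers. The p-value that the scanner software deposited for each ratio covers technical error within 1 array, per the file headers, and was not used. Ratios in the authors' series matrix were identical to these (largest difference 0). Mean signals were corrected by normexp with an offset of 50, which draws dim ratios towards 0, and normalized by loess (span 0.3) in limma 3.58.1 and R 4.3.3. Spots of a probe were averaged, leaving out 4 non-uniform gene spots on each array. No gene spot was saturated. Between 37.0% and 48.2% of the 59305 gene spots were well above background in each channel. The 2 log2 ratios went into lmFit and eBayes (two-sided test against 0). Benjamini-Hochberg adjustment ran over 22266 probes, with a threshold of 0.05. Each probe had 1 residual degree of freedom, and the prior added 4.90 (prior SD 0.204). The resulting p-values thus rest more on that prior, taken from all probes, than on the spread between the 2 pairs of a probe. Having so few arrays limits all precision here.

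The members and lists were chosen with earlier results of these data known. Levels in every sample are given for members past the threshold, those at 0.5 or more on both arrays with 1 sign, the 3 highest and 3 lowest means and the 4 that differed most between arrays, with a few others shown after their values were seen. From the pathway list, the 4 highest and 4 lowest and any ligand, receptor, kinase, STAT or IRF gene could be named. Alternatives changed the background, normalization, filter, prior, probe rule, channels and arrays used. The fit was checked on simulated ratios. Probe positions are those of the files (mm9), and their place in exons or UTRs was not analysed here. Promoter windows are RefSeq's, read with Python 3.11.15.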

Additional observations from a re-analysis of the deposited data

How the results depend on the processing

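As reported, 85 probes and 1 interferon response gene passed. Both counts were 0 with a normexp offset of 0, with processed signals, with the series matrix and with separate channels. They were 6735 probes and 24 genes with median centring, 355 and 4 with no filter on dim probes. With a trended and robust prior they were 564 and 7 where the trend follows intensity, and 0 and 0 where it follows the ratio (added after seeing the data). The genes added without the filter were Bst2, Ifitm1 and Isg15, and the prior on intensity also added Gbp2, Gbp3 and Rtp4. The members' median ratio was 0.53 with offset 0, 0.56 with processed signals and with the series matrix, and 1.04 with median centring. It was 0.37 to 0.46 with 1 replicate left out, where no test can be made. The mean of Mx2 turned to -0.013 with offset 0, -0.078 with processed signals and -0.075 with the series matrix. That of Dhx58 turned to 0.090, 0.090 and 0.19 with processed signals, the series matrix and median centring. The means of Ifit1 and Ifit2, well above background in no control sample, were 0.10 and 0.28 as reported. They were 0.325 and 1.18 with offset 0, and 1.08 and 1.35 with processed signals. The cause of these shifts was not tested. With 1 replicate left out, 9 genes took either sign: Dhx58 (-0.086 to 0.061), Eif2ak2 (-0.078 to 0.45), Ifi35 (-0.16 to 0.26), Ifih1 (-0.23 to 0.55), Ifitm3 (-0.10 to 0.78), Irf1 (-0.30 to 0.78), Irf7 (-0.023 to 0.27), Isg20 (-0.034 to 0.32) and Mx2 (-0.19 to 0.22). Of the members, 20 of 27 were higher on both arrays with both channels above background (29.6% of all probes), 27 of 36 with no filter (28.4%), 33 of 34 with median centring (87.3%) and 25 or 26 of 34 in the others. Leaving out acinar and Reg genes, added after seeing the data, gave 122 probes and 1 gene. The test of ratios within arrays is itself paired by array.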

Other observations

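Ifi27 had no probe under its own name, but the reference gene table lists Ifi27l1 as a synonym of it. The probe named Ifi27l1 (chr12:104678353-104678412, mm9) had log2 levels of 10.98 (control) and 11.27 (mutant) in replicate 1, and 11.60 and 11.80 in replicate 2. The mutant was higher within each pair and the samples overlapped, with ratios of 0.29 and 0.19 (mean 0.24 ± 0.067, SD, n = 2; adjusted p = 0.576 by limma).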
